A study of Mus musculus with 5 samples.

Results

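Notch signalling in the developing mouse cerebellum was described here through 8 genes of the 15971 in the deposited table: the receptors Notch1 and Notch2, the ligands Dll1 and Dll3, and the transcription factors Hes1, Hes5, Hes6 and Hey1. They were chosen by name and were followed through cells grouped by detection of Sox2, Atoh1, Barhl1, Eomes and Mapt, so that no member set the classes. The libraries came from single cells of cerebellar tissue in a series on the rhombic lip origin of medulloblastoma, made with 10x Chromium 3′ kits. They were 1 EomesCreER e16 library, 2 RL e14 libraries (titled RL-e14-UT and RL-e14-UT-2) and 2 RL e13 libraries (titled RL-e13-UT-1 and RL-e13-UT-2), and the labels state no strain and no treatment agent. RL stands for the rhombic lip. EomesCreER is the name of an allele that places an inducible Cre under the control of Eomes, and the labels do not say which cells of those embryos were loaded.

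The libraries held 706 to 2676 cells, with medians of 10346 UMIs (unique molecular identifiers, which count molecules) per cell in the e16 library and 15855 to 19970 in the RL libraries. RL e13 replicate 2 is tagged e14 in its age field although its title says e13, and 6 cell barcodes occurred in more than 1 library. RL e13 replicate 1 stood apart from the other RL libraries. Its transition cells, defined next, had 23.1 CPM of Barhl1 where the highest library had 407 CPM. A UMI of the roof plate or choroid plexus genes Ttr, Msx1, Msx2 or Lmx1a was found in 43.3% of them. Transition cells of the other RL libraries had 11.6% to 14.8%. Such a UMI was also found in 29.8% to 39.9% of RL Sox2 progenitors and 55.0% of e16 Eomes Mapt neurons. Lmx1a is also among the unipolar brush cell genes used below. For some genes, the class comparisons and pooled shares of molecules that include RL e13 replicate 1 are also given without it.

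Notch signalling passes between neighbouring cells. A ligand such as Dll1 on one cell activates a Notch receptor on the next, the receptor's inner part is cut free and joins the DNA-binding protein Rbpj, and genes such as Hes1 and Hes5 are switched on. In embryonic neural tissue the Hes proteins hold down proneural genes, which keeps the receiving cell a progenitor, while the ligand-bearing cell goes on to differentiate.

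Cells were classed after each had been thinned to 5000 UMIs, with a gene called detected at 1 UMI or more. Sox2 progenitors had Sox2 alone, transition cells had Sox2 with Atoh1 or Barhl1, and granule progenitors had Atoh1 or Barhl1 without Sox2. Cells of all these classes had no Eomes and no Mapt detected. Mapt neurons had Mapt without Sox2, Atoh1 or Eomes, and early Mapt cells had Mapt with Atoh1 and without Sox2 or Eomes. Eomes cells and Eomes Mapt neurons had Eomes without or with Mapt. Levels are means over cells of UMIs per 1000000 (CPM), from all UMIs of a cell, wherever a class had at least 20 cells in a library. The 8 radial glia genes summed to 8122 to 14767 CPM in Sox2 progenitors, 2633 to 5410 in transition cells and 1276 to 3277 in granule progenitors. The 7 neuron genes summed to 12525 to 15322 CPM in Mapt neurons and 1396 to 4545 CPM in granule progenitors. Other lists did not single out their class. The 6 granule lineage genes summed to 1398 to 2100 CPM in granule progenitors but to 2198 to 2992 CPM in Eomes cells, and the 5 unipolar brush cell genes reached 567 to 1541 CPM in Eomes cells and 60.2 to 650 CPM in granule progenitors, so these classes are named for the genes that define them. Markers of microglia, meninges, oligodendrocyte lineage and endothelium summed to at most 7.30, 7.89, 24.4 and 38.8 CPM in any profile. Those of red blood cells reached 63.5 CPM (Mapt neurons) and those of GABAergic cells 108 CPM (granule progenitors). Roof plate and choroid plexus markers reached 219 CPM (transition cells). Because 3′ UMIs are not set per transcript length, each gene is compared only with itself. Unless a library is named, 4 values in a row are those of RL e14 replicates 1 and 2 and then RL e13 replicates 1 and 2.

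Start regions of Hes5, Hes6 and Dll1 are shown because these genes carry the contrasts below: a target that marks receiving cells, a target-family gene that marks the cells leaving the progenitor state, and the activating ligand. Each window runs from 250 bases before to 50 bases after a transcript start in RefSeq's GRCm38.p6, 5′ to 3′ on the gene's strand. Hes6 and Dll1 had 2 such windows each. The Hes6 window shown is at the inner start, within the gene span given below, and the Dll1 window at the outer one. Capitals mark the Rbpj core TGGGAA and the N box CACNAG, a site type bound by Hes proteins, on either strand.
Hes5, chr4:154960673-154960972, plus strand: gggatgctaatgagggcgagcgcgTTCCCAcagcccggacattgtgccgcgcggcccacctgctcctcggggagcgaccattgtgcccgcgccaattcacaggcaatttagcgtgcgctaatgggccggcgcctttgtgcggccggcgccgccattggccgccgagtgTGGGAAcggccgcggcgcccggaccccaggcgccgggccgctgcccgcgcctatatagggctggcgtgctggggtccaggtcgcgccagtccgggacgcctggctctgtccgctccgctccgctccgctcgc
Hes6, chr1:91413173-91413472, minus strand: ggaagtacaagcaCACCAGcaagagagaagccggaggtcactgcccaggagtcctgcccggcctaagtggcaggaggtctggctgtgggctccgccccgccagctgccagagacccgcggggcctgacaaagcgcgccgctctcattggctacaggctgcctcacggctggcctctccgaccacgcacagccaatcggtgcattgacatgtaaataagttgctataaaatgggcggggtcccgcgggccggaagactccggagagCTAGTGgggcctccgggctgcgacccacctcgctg
Dll1, chr17:15376883-15377182, minus strand: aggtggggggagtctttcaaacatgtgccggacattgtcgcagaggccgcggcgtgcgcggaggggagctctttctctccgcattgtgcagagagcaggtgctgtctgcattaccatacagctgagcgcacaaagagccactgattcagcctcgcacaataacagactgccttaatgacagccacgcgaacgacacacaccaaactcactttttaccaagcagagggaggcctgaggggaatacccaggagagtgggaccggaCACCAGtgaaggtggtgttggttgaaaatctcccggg
Windows were found for 6 of the 8 members (8 windows), and Hes1 and Hey1 were not among them. The Hes5 window held 2 matches to TGGGAA, both within the longer GTGGGAA, and the other 7 windows held 0. Of all 32851 mouse windows, 25.6% held TGGGAA, 3.79% held it 2 or more times, and 0.256% held GTGGGAA 2 or more times. The N box was in 4 of the 8 windows, where 42.5% of all windows held at least 1. The Hes6 window shown held 2 and the other Hes6 window 0, the Dll1 window shown held 1 and the other 0, Notch1 had 3, Notch2 had 1, and Hes5 and Dll3 had 0. A match describes the letters only.

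All 8 members are protein-coding genes, and their positions on mm10, the build named per the submitters' processing notes, come from the GENCODE annotation of that build. Notch1 lies at chr2:26457903-26516663 (minus strand) and Notch2 at chr3:98013527-98150361 (plus strand). Dll1 lies at chr17:15367354-15376872 and Dll3 at chr7:28293553-28302238, both on the minus strand. Hes1 lies at chr16:30064384-30067796 and Hes5 at chr4:154960923-154962371 on the plus strand, and Hes6 at chr1:91411483-91414038 and Hey1 at chr3:8663359-8667256 on the minus strand.

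Hes5, a main effector of Notch in neural progenitors, was highest in Sox2 progenitors of every RL library. It had 555, 721, 488 and 604 CPM in Sox2 progenitors, 83.5, 105, 262 and 132 CPM in transition cells, and 12.3, 21.6, 140 and 37.1 CPM in granule progenitors. The 3 classes kept this order within each library, and the transition and granule values of RL e13 replicate 1 were the highest of the 4. In Eomes cells Hes5 had 1.90, 3.15 and 5.21 CPM in RL e14 replicates 1 and 2 and RL e13 replicate 2.

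Hes1, the related repressor, had 130, 115, 67.5 and 136 CPM in Sox2 progenitors, 23.6, 43.2, 70.9 and 27.5 CPM in transition cells, and 7.71, 6.62, 26.8 and 9.59 CPM in granule progenitors. The order was again progenitor, transition, granule in 3 of the libraries. RL e13 replicate 1 had nearly the same level in its Sox2 progenitors and its transition cells.

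Notch1, the main receptor of neural progenitors, had 158, 242, 175 and 164 CPM in Sox2 progenitors, 53.7, 64.0, 150 and 59.3 CPM in transition cells, and 20.03, 24.4, 61.8 and 23.6 CPM in granule progenitors. It was still present in Eomes cells, at 16.8, 31.2 and 24.4 CPM in the RL libraries with enough cells, and reached 1.90 to 5.35 CPM in RL Eomes Mapt neurons. From Sox2 progenitors to transition cells to granule progenitors Notch1 stepped down in every RL library, and its transition cell value in RL e13 replicate 1 lay far above the rest. Notch2, the second receptor, had 26.5, 83.3, 19.3 and 29.6 CPM in Sox2 progenitors, with RL e14 replicate 2 well above the others, and 5.31 to 9.37 CPM in RL granule progenitors.

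Dll1, the ligand that activates receptors on neighbouring cells, peaked between the progenitor and the neuron. It had 8.31, 15.6, 22.3 and 13.3 CPM in Sox2 progenitors, 39.4, 26.9, 83.0 and 67.7 CPM in transition cells, and 17.1, 29.2, 106 and 40.7 CPM in granule progenitors. Transition cells were above Sox2 progenitors in every RL library, while granule progenitors lay above transition cells in 2 of the 4. Beyond these classes Dll1 varied. It had 1.96, 2.54 and 9.09 CPM in Mapt neurons of RL e14 replicates 1 and 2 and RL e13 replicate 2. RL Eomes Mapt neurons had 0.728 to 5.70 CPM and RL Eomes cells 12.3 to 15.9 CPM. Early Mapt cells had 4.09 to 33.2 CPM in the 2 RL libraries with enough of them.

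Dll3, a ligand that stays largely inside the cell and does not activate receptors on neighbours, behaved differently from Dll1. It had 0.632, 4.89, 0.653 and 1.64 CPM in Sox2 progenitors, 19.5, 26.0, 3.32 and 17.5 CPM in transition cells, and 25.5, 28.8, 22.8 and 26.7 CPM in granule progenitors. It stayed at 36.9, 25.1 and 33.3 CPM in Mapt neurons and at 35.2, 42.2 and 44.1 CPM in Eomes Mapt neurons of the RL libraries with enough cells. Low values in Sox2 progenitors and sustained values in both neuron classes were seen in each of these libraries.

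Hes6, a family member that in mouse opposes Hes1 and favours neuronal differentiation, had 167, 278, 210 and 232 CPM in Sox2 progenitors, 1376, 1321, 597 and 1288 CPM in transition cells, and 1314, 1309, 1255 and 1217 CPM in granule progenitors. Only the transition cells of RL e13 replicate 1 lay between the progenitor and granule levels. In Mapt neurons Hes6 was at 477, 434 and 622 CPM. Hey1, a repressor of a related family and a Notch target in other tissues, had 41.1, 45.1, 60.6 and 43.8 CPM in Sox2 progenitors and 83.0, 99.9, 52.4 and 76.5 CPM in granule progenitors.

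**Figure D1:**
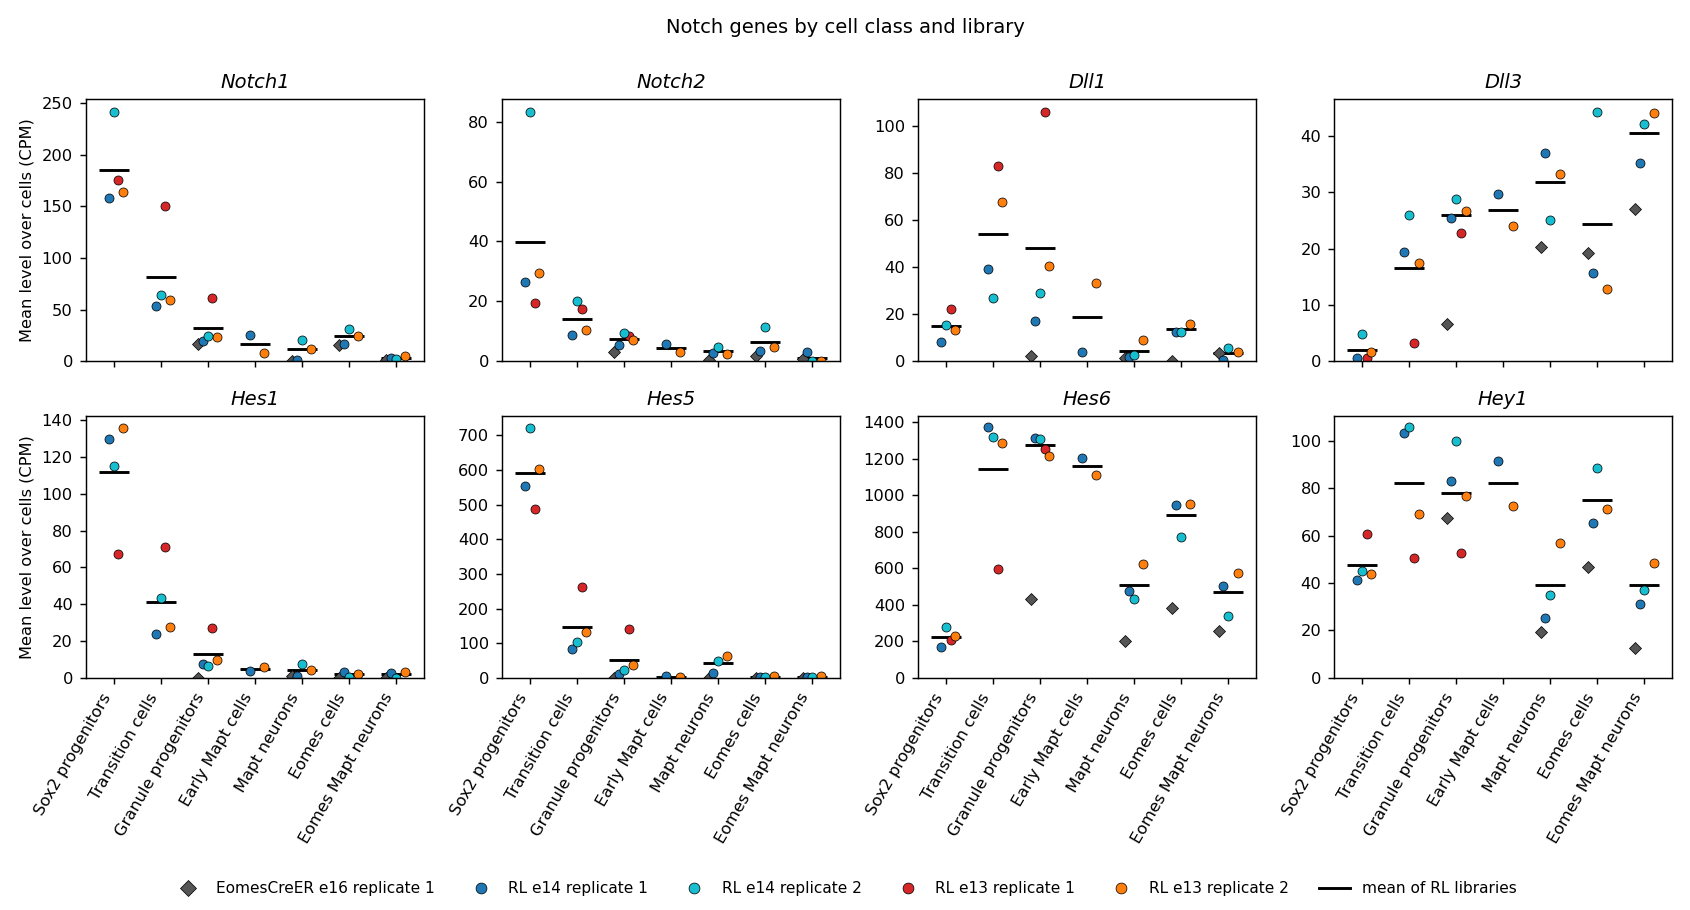
Mean level of each member over cells (CPM, linear axis from 0) by cell class; circles are RL libraries, grey diamonds the EomesCreER e16 library, and bars the mean of the RL libraries. Notch1, Notch2, Hes1 and Hes5 are highest in Sox2 progenitors, Dll1 averages 54.2 CPM in transition cells against 14.9 CPM in Sox2 progenitors, Hes6 averages 1274 CPM in granule progenitors, and Dll3 averages 40.5 CPM in RL Eomes Mapt neurons.

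Where the molecules lay was counted over the 4 RL libraries from thinned cells, in which Sox2 progenitors made up 24.8% of cells, transition cells 16.7% and granule progenitors 31.8%. Sox2 progenitors held 67.8% of 4360 Hes5 UMIs, 62.7% of 927 Hes1 UMIs, 56.4% of 1665 Notch1 UMIs and 52.5% of 303 Notch2 UMIs. Receptors and the Hes1 and Hes5 transcripts thus sat in the same class, well above its share of cells. The ligand molecules lay elsewhere. Sox2 progenitors held 13.8% of 622 Dll1 UMIs and 2.54% of 355 Dll3 UMIs, and transition cells with granule progenitors held 33.1% and 37.0% of Dll1 UMIs. Granule progenitors held 46.8% of Dll3 UMIs and 48.3% of 18267 Hes6 UMIs. Without RL e13 replicate 1 Sox2 progenitors made up 19.0% of cells and held 67.5% of Hes5, 63.6% of Hes1, 52.8% of Notch1, 51.6% of Notch2 and 9.75% of Dll1 UMIs. Hey1 was spread closer to the cells themselves, with 18.6%, 21.7% and 37.8% of 1440 UMIs in the 3 classes.

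**Figure D2:**
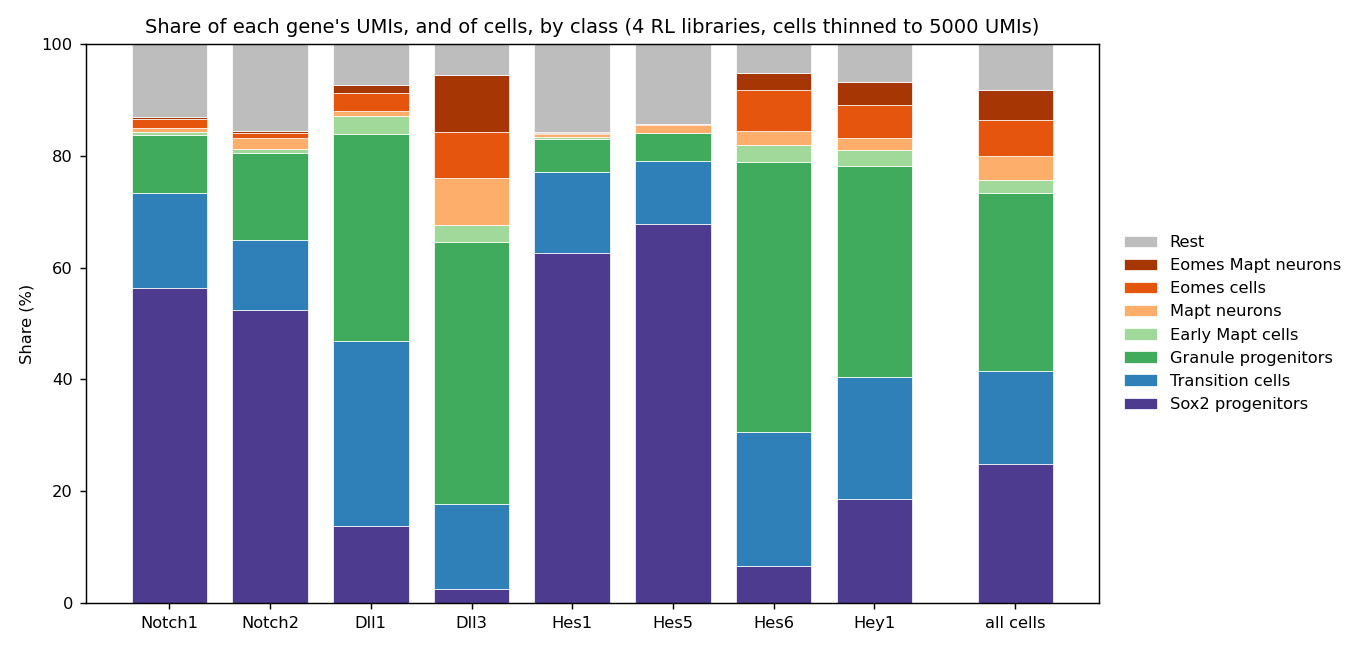
Share (%) of each gene's UMIs found in each cell class, with the share of cells in the right-hand bar, over the 4 RL libraries after thinning each cell to 5000 UMIs. Sox2 progenitors hold 67.8% of Hes5 UMIs and 13.8% of Dll1 UMIs while making up 24.8% of cells.

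A finer division by detected genes placed Dll1 within the transition. Cells with Sox2 and Atoh1 but no Barhl1 had 64.6, 83.9 and 96.3 CPM of Dll1 in the 3 RL libraries with enough of them, a mean of 81.6 ± 15.99 (SD, n = 3), against 14.9 ± 5.82 CPM in Sox2-alone cells (SD, n = 4). With Barhl1 added, cells with Sox2, Atoh1 and Barhl1 had 37.3 ± 19.1 CPM (SD, n = 3). The sets of libraries differed, since RL e13 replicate 1 had too few of the cells with Barhl1 and RL e14 replicate 2 too few of those without it. Within the libraries that had both, Dll1 was 64.6 and 96.3 CPM without Barhl1 and 28.9 and 59.2 CPM with it in RL e14 replicate 1 and RL e13 replicate 2. Without Sox2, Atoh1-alone cells had 26.3, 73.1, 121 and 101 CPM in the 4 RL libraries, and Atoh1 and Barhl1 cells had 19.6, 32.9 and 31.8 CPM in RL e14 replicates 1 and 2 and RL e13 replicate 2. Dll1 was thus higher where Atoh1 was detected and Barhl1, a homeobox gene of the Atoh1 lineage, was not, in each library with both kinds of cell.

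Hes5 in the Sox2 and Atoh1 cells without Barhl1 was 183 CPM in RL e14 replicate 1 and 280 CPM in RL e13 replicate 2, against 13.3 and 43.7 CPM with Barhl1. Dll3 went the other way in this pair of libraries, at 4.14 and 11.8 CPM without Barhl1 and 28.2 and 22.8 CPM with it. Hes6 was 1037 and 1113 CPM without Barhl1 and 1594 and 1420 CPM with it, while RL e13 replicate 1, with cells of the first kind only, had 524 CPM. Cells with Sox2 and Atoh1 but no Barhl1 therefore had high Dll1 together with Hes5 and with Notch1 (117 ± 32.2 CPM, SD, n = 3) still above their granule progenitor means. Cells with Sox2 and Barhl1 but no Atoh1 had 20.3 ± 7.06 CPM of Dll1, 13.6 ± 4.30 CPM of Dll3 and 170 ± 78.9 CPM of Hes5 (SD, n = 3 each). These values are descriptions with no test.

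**Figure D3:**
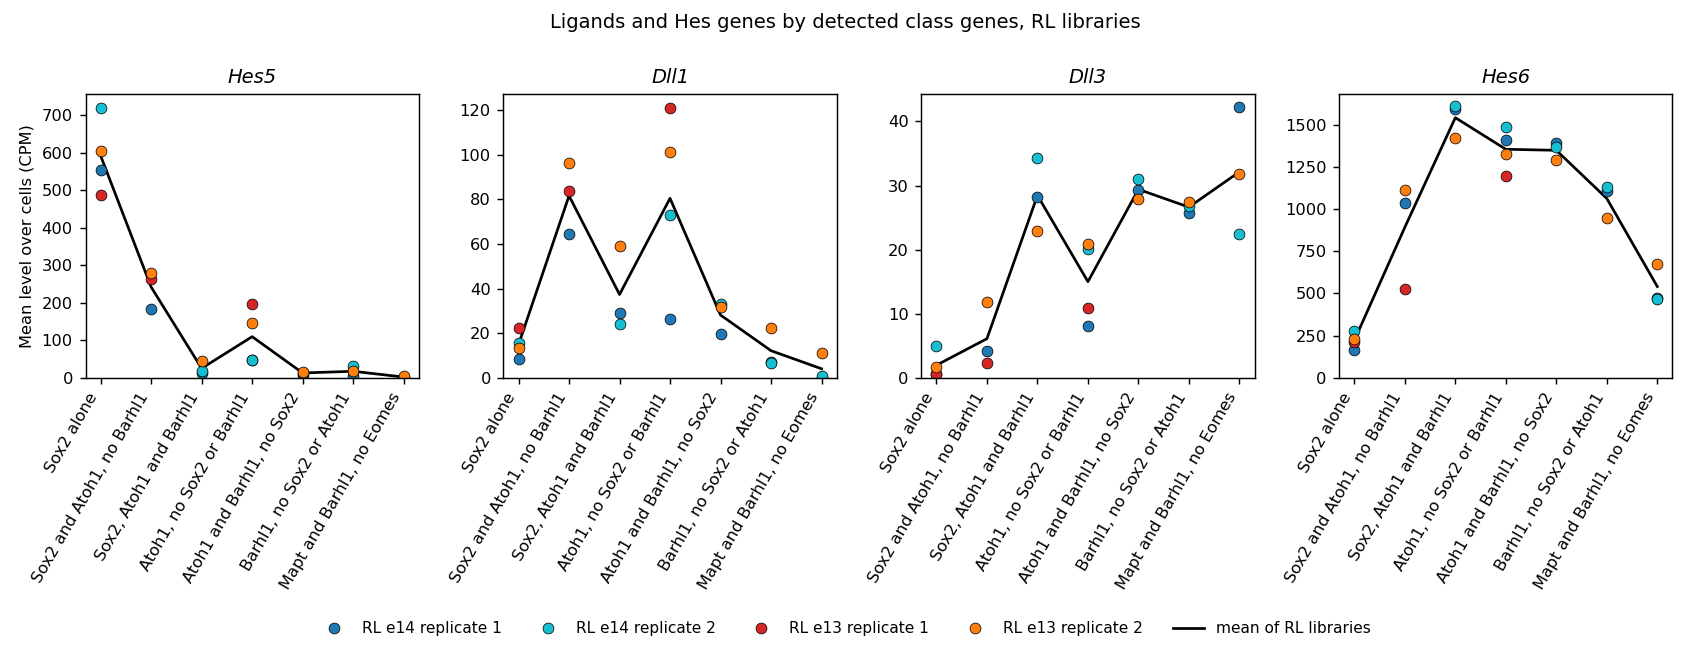
Mean level (CPM, linear axis from 0) of Hes5, Dll1, Dll3 and Hes6 in cells divided by which of Sox2, Atoh1, Barhl1 and Mapt were detected, with RL libraries as circles and their mean as the line. Hes5 is highest in Sox2-alone cells (592 CPM on average) and lowest in Mapt and Barhl1 cells (1.85 CPM), Dll1 averages 81.6 and 80.5 CPM in the groups that have Atoh1 without Barhl1, and Dll3 averages 26.6 CPM or more in each plotted group with Barhl1.

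The first step, from Sox2 progenitors to transition cells, was tested in the 4 RL libraries with limma on log2(CPM + 5), the library as a block, and Benjamini-Hochberg adjustment over all 8400 genes tested. Dll1 and Hes6 rose and Hes5, Notch1 and Notch2 fell. These were 5 of the 7 members that passed the filter of a mean of 10 CPM, where 11.6% of all genes were called (4.26% higher and 7.35% lower). Hes6 averaged 1145 ± 367 CPM in transition cells and 221 ± 46.2 CPM in Sox2 progenitors (SD, n = 4 each), a log2 difference of 2.29 ± 0.21 (SE, limma adjusted p = 0.0053). Dll1 averaged 54.2 ± 25.7 CPM and 14.9 ± 5.82 CPM in the same classes (1.51 ± 0.22, limma adjusted p = 0.013).

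Hes5 averaged 145 ± 80.0 CPM in transition cells and 592 ± 97.96 CPM in Sox2 progenitors (SD, n = 4 each), a log2 difference of -2.11 ± 0.29 (SE, limma adjusted p = 0.011). Notch1 changed by -1.23 ± 0.24 (limma adjusted p = 0.026) and Notch2 by -1.07 ± 0.25 (limma adjusted p = 0.042). Hes1 averaged 41.3 ± 21.5 CPM in transition cells and 112 ± 31.0 CPM in Sox2 progenitors and missed the threshold (-1.40 ± 0.36, 95% interval -2.25 to -0.55, limma adjusted p = 0.053; called in 6 of 15 alternatives), as did Hey1 (0.68 ± 0.24, 0.12 to 1.24, limma adjusted p = 0.11). Dll3 was below the filter and was higher in transition cells of 4 of 4 libraries. Without RL e13 replicate 1 each of the 8 members was called by limma, with Hes5 at -2.51, Hes6 at 2.56, Hes1 at -1.89 and Hey1 at 0.99. Without RL e14 replicate 1, RL e14 replicate 2 or RL e13 replicate 2, limma called 0, 1 and 0 members. Over all genes those fits called 2, 10 and 2 higher and 0, 4 and 1 lower, in the same order. The fit without RL e13 replicate 1 called 864 genes higher and 1346 lower. In all of these fits the log2 difference of each member called in the main fit kept its sign.

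Other genes of the pathway were taken from a list of 47, of which 30 were tested in this step. There 3 were higher and 6 lower in transition cells, with a median log2 difference of -0.08 against -0.04 over all genes. Nrarp, a feedback inhibitor that Notch itself induces, averaged 13.9 CPM in transition cells and 43.9 CPM in Sox2 progenitors (-1.34 ± 0.12, limma adjusted p = 0.0045). The fringe enzymes, which add sugars to Notch and change which ligands it answers to, split. Lfng averaged 12.3 CPM in transition cells and 63.6 CPM in Sox2 progenitors (-2.01 ± 0.35, limma adjusted p = 0.020), and Mfng averaged 78.5 and 27.7 CPM in the same order (1.47 ± 0.23, limma adjusted p = 0.015). The receptor Notch3 (-1.17), the Deltex family gene Dtx4 (-2.06) and Id4 (-1.59) were lower too, with limma adjusted p of 0.038, 0.018 and 0.0097.

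The second step compared granule progenitors with transition cells in the same 4 libraries. The receptors and the Hes1 and Hes5 transcripts fell, and neither ligand was called. Limma called 4 of the 8 members, where 5.6% of all 8234 genes were called (2.68% higher and 2.91% lower). Hes5 averaged 52.8 ± 59.2 CPM in granule progenitors and 145 ± 80.0 CPM in transition cells (SD, n = 4 each), with a log2 difference of -1.74 ± 0.20 (limma adjusted p = 0.0014). Notch1 changed by -1.21 ± 0.07 (limma adjusted p = 7.2e-05), Hes1 by -1.41 ± 0.16 (limma adjusted p = 0.0013) and Notch2 by -0.58 ± 0.13 (limma adjusted p = 0.035), each lower in 4 of 4 libraries.

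Dll1 averaged 48.3 ± 39.7 CPM in granule progenitors and 54.2 ± 25.7 CPM in transition cells (SD, n = 4 each) and was not called (-0.31 ± 0.20, 95% interval -0.76 to 0.14, limma adjusted p = 0.47). It was called lower without RL e13 replicate 1 (-0.53, limma adjusted p = 0.0065), with 1 UMI and no thinning (-0.67, limma adjusted p = 0.0080) and at 3000 UMIs (-0.76, limma adjusted p = 0.0013). Dll3 (0.67 ± 0.23, 0.14 to 1.20, limma adjusted p = 0.16), Hes6 (0.23 ± 0.17, -0.15 to 0.61, limma adjusted p = 0.54) and Hey1 (-0.05 ± 0.08, -0.24 to 0.14, limma adjusted p = 0.82) were not called. Notch2 lost its call without RL e14 replicate 1 (limma adjusted p = 0.10) or RL e13 replicate 2 (limma adjusted p = 0.093). Of 29 other pathway genes tested, 1 was higher and 2 were lower, among them Notch3 (-0.87 ± 0.12, limma adjusted p = 0.0034) and Dtx4 (-1.36 ± 0.15, limma adjusted p = 0.0014), with a median of 0.02 against -0.02 over all genes.

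**Figure D4:**
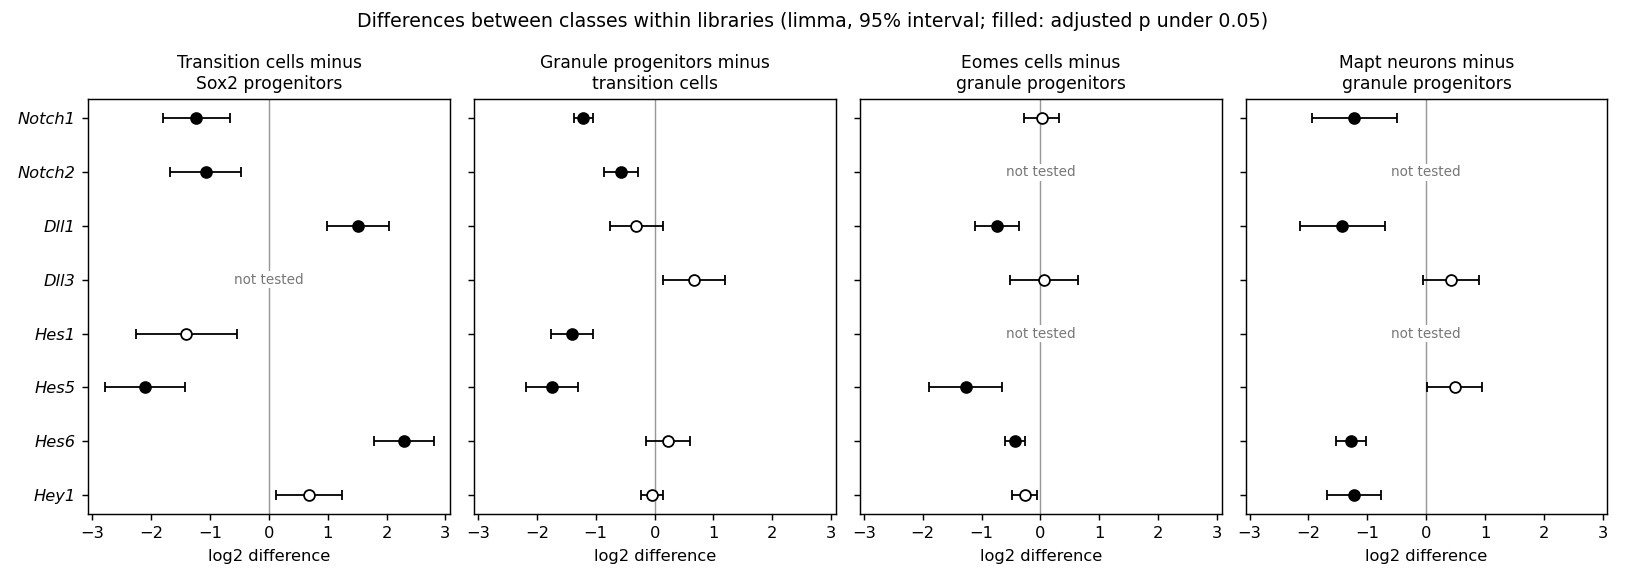
Log2 differences of the members between classes within libraries (points) with 95% intervals from limma on log2(CPM + 5); filled points passed an adjusted p of 0.05 over all genes, and members below the expression filter are marked as not tested. Hes5 is lower at each of the first 2 steps (-2.11 and -1.74), Dll1 is higher at the first (1.51), and Hes6 is lower in Mapt neurons (-1.27).

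Eomes cells were compared with granule progenitors in the e16 library and the 3 RL libraries with enough cells. Eomes is among the unipolar brush cell genes summed above, and which neurons these cells become was not tested. Dll1, Hes5 and Hes6 were lower, and Notch1 was not called. These were 3 of the 6 members tested, where 12.9% of all 8212 genes were called (6.9% higher and 5.97% lower). Hes6 had 385, 947, 773 and 953 CPM in Eomes cells of the e16 library, RL e14 replicates 1 and 2 and RL e13 replicate 2, against 433, 1314, 1309 and 1217 CPM in granule progenitors of the same libraries. It was lower in each of the 4 (-0.44 ± 0.08, limma adjusted p = 0.0034). Dll1 averaged 10.2 ± 7.02 CPM in Eomes cells and 22.3 ± 16.5 CPM in granule progenitors (SD, n = 4 each; -0.74 ± 0.17, limma adjusted p = 0.016).

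Hes5 averaged 2.56 ± 2.19 CPM in Eomes cells and 17.8 ± 15.7 CPM in granule progenitors (SD, n = 4 each; -1.27 ± 0.28, limma adjusted p = 0.012), and both classes were at 0 in the e16 library. Notch1 averaged 22.1 ± 7.14 CPM in Eomes cells and 21.2 ± 3.54 CPM in granule progenitors (0.02 ± 0.14, 95% interval -0.28 to 0.32, limma adjusted p = 0.94). Hey1 was not called (-0.27 ± 0.10, -0.48 to -0.06, limma adjusted p = 0.092), nor was Dll3 (0.06 ± 0.26, -0.52 to 0.63, limma adjusted p = 0.92). Without RL e14 replicate 2 or RL e13 replicate 2 the Dll1 call was lost (limma adjusted p = 0.12 and 0.10), as it was with 1 UMI and no thinning (-0.37, limma adjusted p = 0.49). Of 26 other pathway genes 4 were higher and 0 lower (median 0.01 against -0.0038 over all genes). They were Dner, a Notch ligand of neurons, at 57.5 CPM in Eomes cells and 31.2 CPM in granule progenitors (0.95 ± 0.15, limma adjusted p = 0.0018), Mfng (0.71), Numbl, a relative of the Notch inhibitor Numb (0.60), and Ncstn, a subunit of the protease that frees the receptor's inner part (0.46).

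Mapt neurons were compared with granule progenitors in the same 4 libraries. Notch1, Dll1, Hes6 and Hey1 were lower, 4 of the 6 members tested, in a comparison where 44.1% of all 8315 genes were called (22.9% higher and 21.2% lower). Hes6 had 200, 477, 434 and 622 CPM in Mapt neurons of the e16 library, RL e14 replicates 1 and 2 and RL e13 replicate 2, against 433, 1314, 1309 and 1217 CPM in their granule progenitors (-1.27 ± 0.11, limma adjusted p = 0.00013). Hey1 averaged 34.1 ± 16.5 CPM in Mapt neurons and 81.7 ± 13.6 CPM in granule progenitors (SD, n = 4 each; -1.23 ± 0.20, limma adjusted p = 0.0016), and the ranges of the 2 classes did not overlap.

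Dll1 averaged 3.76 ± 3.58 CPM in Mapt neurons and 22.3 ± 16.5 CPM in granule progenitors (SD, n = 4 each; -1.42 ± 0.32, limma adjusted p = 0.0072), a call lost with 1 UMI and no thinning (-0.84, limma adjusted p = 0.32). Notch1 averaged 8.69 ± 9.66 CPM and 21.2 ± 3.54 CPM in the same classes (-1.22 ± 0.32, limma adjusted p = 0.014), a call lost without RL e14 replicate 1 (-0.995, limma adjusted p = 0.079). Dll3 averaged 28.9 ± 7.57 CPM in Mapt neurons and 21.9 ± 10.3 CPM in granule progenitors and was not called (0.42 ± 0.21, 95% interval -0.06 to 0.90, limma adjusted p = 0.14). Dner averaged 227 CPM in Mapt neurons and 31.2 CPM in granule progenitors (2.84 ± 0.19, limma adjusted p = 6.7e-05). It was 1 of 6 higher and 4 lower among 26 other pathway genes (median 0.02 against 0.01 over all genes), beside Numbl (1.07), Dtx3 (0.76) and Rfng (0.62) as higher and Adam17, a protease that trims Notch (-0.86), and Poglut1, which adds glucose to it (-0.60), as lower. All 15 G2/M genes and all 15 S phase genes were lower in Mapt neurons.

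Hes5 was not called between these classes (0.48 ± 0.20, 95% interval 0.02 to 0.94, limma adjusted p = 0.084), with 0.628, 13.1, 48.8 and 62.4 CPM in Mapt neurons and 0, 12.3, 21.6 and 37.1 CPM in granule progenitors. Without the e16 library it was called higher (0.59, limma adjusted p = 0.033). Mapt cells with Barhl1 held little of it, at 1.02, 0, 0 and 5.54 CPM in the e16 library, RL e14 replicates 1 and 2 and RL e13 replicate 2. The Hes5 of this class in the RL libraries was therefore in the fewer Mapt cells where Barhl1 was not detected.

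Within the Sox2-detected cells of one library, cells with Dll1 were set against cells without it, pooling Sox2 progenitors and transition cells. Dll1-detected cells had more Hes6 and less Hes1. The comparison covered 34, 54 and 83 Dll1-detected cells and 294, 456 and 665 Dll1-negative cells in RL e14 replicate 1, RL e13 replicate 1 and RL e13 replicate 2. RL e14 replicate 2 had 17 detected cells and was left out. Limma called 3 of the 6 members tested, where 8.38% of all 8330 genes were called (2.51% higher and 5.87% lower), and Dll1 itself was used by the split and not tested.

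Hes6 had 1259, 897 and 1380 CPM in Dll1-detected cells, against 818, 236 and 561 CPM in Dll1-negative cells of RL e14 replicate 1, RL e13 replicate 1 and RL e13 replicate 2. It was higher in 3 of 3 libraries and the ranges did not overlap (1.27 ± 0.14, limma adjusted p = 1.1e-05). Hes1 had 35.1, 54.2 and 32.8 CPM in Dll1-detected cells, against 72.5, 70.0 and 99.99 CPM in Dll1-negative cells (-0.92 ± 0.17, limma adjusted p = 0.0015). It was lower in 3 of 3 libraries, and the call was lost without RL e13 replicate 2 (-0.65, limma adjusted p = 0.082). Without RL e13 replicate 1 Hes6 was at 0.95 and Hes1 at -1.21, both called.

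Hes5 had 226, 449 and 247 CPM in Dll1-detected cells, against 290, 430 and 437 CPM in Dll1-negative cells. It was lower in 2 of 3 libraries, with a limma adjusted p of 0.045 (-0.37 ± 0.11) that was lost or reversed in 10 of 15 alternatives. Notch1 averaged 127 ± 44.9 CPM in Dll1-detected cells and 130 ± 35.1 CPM in Dll1-negative cells (SD, n = 3 each; -0.06 ± 0.10, 95% interval -0.27 to 0.15, limma adjusted p = 0.81). Hey1 (-0.29 ± 0.15, -0.61 to 0.02, limma adjusted p = 0.28) and Notch2 (-0.21, -0.61 to 0.19, limma adjusted p = 0.59) were not called, although Hey1 was called lower at 3000 UMIs (-1.001, limma adjusted p = 0.0011) and Notch2 with 1 UMI and no thinning (-0.40, limma adjusted p = 0.044). Dll3 had 6.94, 0 and 8.81 CPM in Dll1-detected cells, against 11.998, 1.47 and 7.84 CPM in Dll1-negative cells, and was below the filter. Cells with a UMI of both ligands were 0 of 328, 0 of 194, 0 of 510 and 3 of 748 Sox2-detected cells in the 4 RL libraries. Dll3 was itself seldom detected, in 16 of 294 and 5 of 456 Dll1-negative cells of RL e14 replicate 1 and RL e13 replicate 1. Few cells with both could thus occur, and whether they were fewer than by chance was not tested.

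Proneural genes were higher in Dll1-detected cells in 5 of the 6 tested (median log2 difference 0.98 against -0.04 over all genes). Gadd45g, a cell cycle exit gene, averaged 1148 CPM in Dll1-detected cells and 244 CPM in Dll1-negative cells (2.34 ± 0.11, limma adjusted p = 5.0e-10). The antiproliferative gene Btg2 differed by 1.08. Cell cycle genes were lower, 12 of 15 S phase genes (median -0.69) and 8 of 15 G2/M genes (median -0.37) by limma, with Mcm5 at 60.7 CPM in Dll1-detected cells and 127 CPM in Dll1-negative cells (-1.01 ± 0.12, limma adjusted p = 1.9e-05). Cells with a UMI of Mki67 or Top2a were 38.2%, 31.5% and 42.2% of Dll1-detected cells, against 47.6%, 48.2% and 47.8% of Dll1-negative cells.

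Among 30 other pathway genes 3 were higher and 5 lower in Dll1-detected cells (median 0.04 against -0.04). Jag1, a further ligand, averaged 23.3 CPM in Dll1-detected cells and 11.2 CPM in Dll1-negative cells (0.74 ± 0.22, limma adjusted p = 0.048). Mfng (1.03) and Numbl (0.73) were higher, and Dtx4 (-1.13), Id4 (-0.84) and Lfng (-0.80) lower, with limma adjusted p of 6.0e-05, 0.016, 1.7e-05, 0.011 and 0.0081.

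The make-up of the 2 sides differed as well. Atoh1 was detected in 73.5%, 53.7% and 77.1% of Dll1-detected cells, against 47.6%, 20.6% and 30.5% of Dll1-negative cells. The split was repeated among transition cells alone, an alternative chosen after seeing the data. The sides still differed there in the class genes Barhl1 (-0.80, limma adjusted p = 0.024) and Atoh1 (0.55, limma adjusted p = 0.038), and the part this has in the members' values was not tested. Limma called 0 of the members, 35 genes higher and 73 lower. Hes6 averaged 1320 ± 312 CPM in Dll1-detected and 1024 ± 467 CPM in Dll1-negative transition cells (SD, n = 3 each; 0.47 ± 0.12, limma adjusted p = 0.084), higher in 3 of 3 libraries. Hes1 averaged 26.7 ± 16.1 and 44.5 ± 29.7 CPM (-0.60 ± 0.20, limma adjusted p = 0.20), lower in 3 of 3. Hes5 (0.26 ± 0.14, limma adjusted p = 0.47) and Notch1 (0.43 ± 0.15, limma adjusted p = 0.25) changed sign against the pooled cells. Among transition cells, Dll1-detected cells thus had no lower Hes5 on average, with 100, 238 and 188 CPM in them against 80.8, 269 and 116 CPM in Dll1-negative ones.

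**Figure D5:**
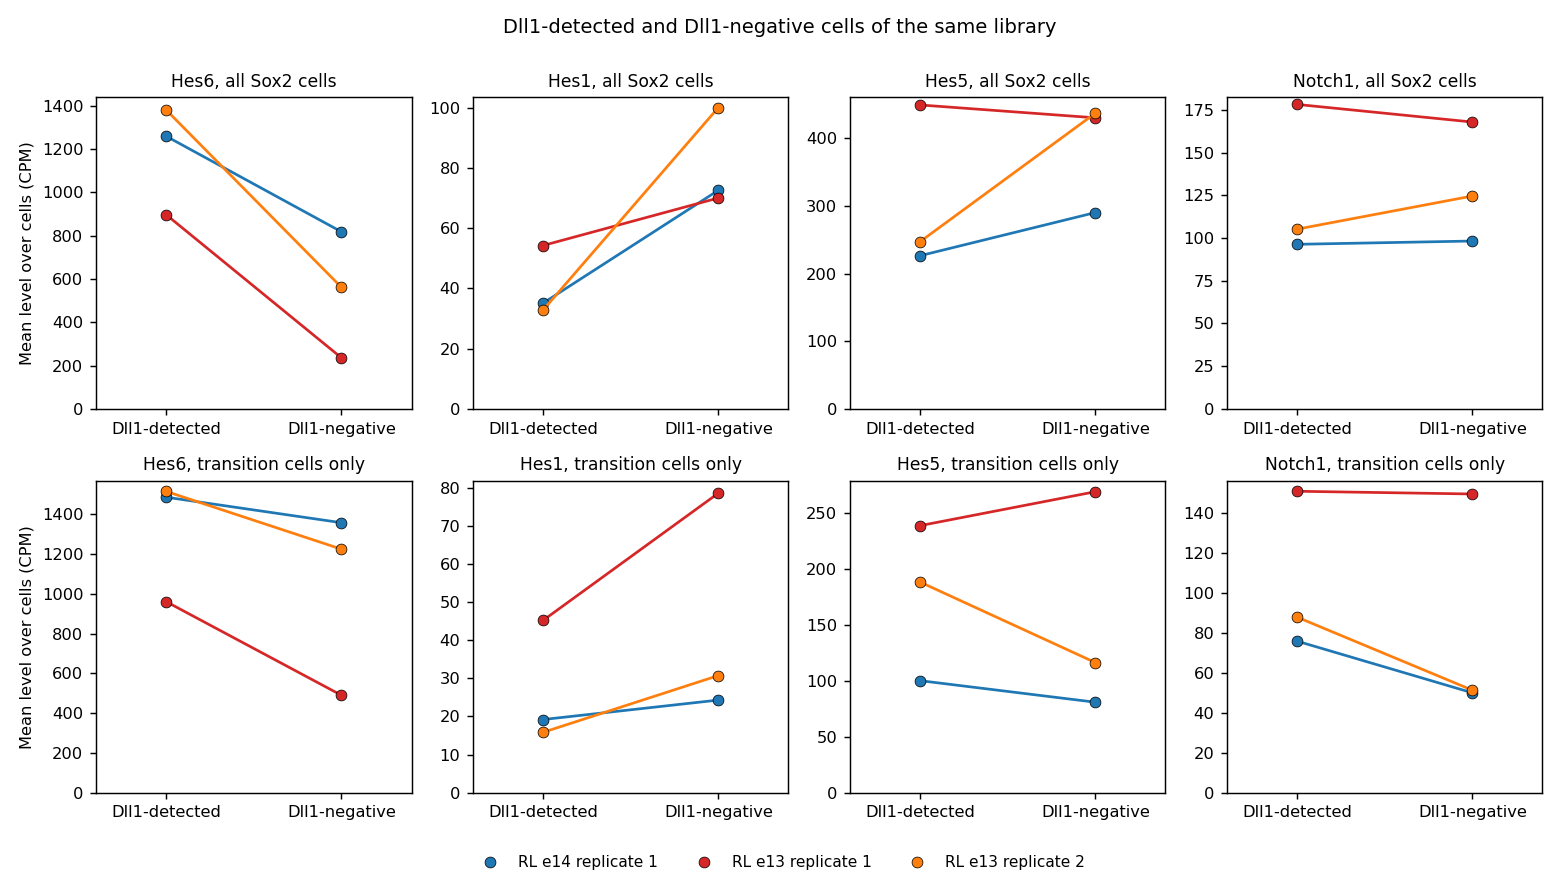
Mean level (CPM, linear axis from 0) of Hes6, Hes1, Hes5 and Notch1 in Dll1-detected and Dll1-negative cells, joined within each RL library, for all Sox2-detected cells (upper row) and for transition cells alone (lower row). Hes6 is higher and Hes1 lower in Dll1-detected cells in each of the 3 libraries of both rows; Hes5 and Notch1 lack that order in the upper row.

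Detection was also compared as a share of cells. Hes6 was detected in 91.2%, 92.6% and 94.0% of Dll1-detected cells, against 73.1%, 46.3% and 65.0% of Dll1-negative cells. Hes1 was detected in 11.8%, 14.8% and 12.05% of Dll1-detected cells, against 19.4%, 26.8% and 28.7% of Dll1-negative cells, a mean difference of -12.1 percentage points (SD 4.53, n = 3). Hes5 was detected in 32.4%, 63.0% and 42.2% of Dll1-detected cells, against 35.4%, 62.1% and 53.2% of Dll1-negative cells (-4.39 points, SD 6.10). The two-sided exact permutation p was 0.25 for Hes6 and Hes1, 0.5 for Hes5 and 1 for Notch1 (4.52 points, SD 8.82), and 0.25 is the smallest that 3 libraries allow.

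Detection of Hes5 and Hes1 in RL Eomes Mapt neurons was at most 1.64% of cells at the same 5000 UMIs, below the shares above. In RL Mapt neurons Hes5 was detected in up to 11.7% of cells and Hes1 in up to 1.79%. Whether either neuron class gives the background of detection was not tested. Dll1 and Hes5 were both detected in 11 of 328, 6 of 194, 34 of 510 and 35 of 748 barcodes of Sox2-detected cells, in data on which no doublet caller was run, and Dll1 alone was detected in up to 7.79% of RL Eomes Mapt neurons. Notch1 was detected more often in Hes5-detected than in Hes5-negative Sox2 cells in 4 of 4 RL libraries, by 25.0 percentage points on average (SD 10.1, two-sided exact permutation p = 0.125, the smallest possible). These cells pool 2 classes. Notch1 and Hes5 were detected in 53.0% and 68.1% of Sox2 progenitors on average, and in 31.1% and 26.5% of transition cells. The part this mix has in the difference was not tested.

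Age was compared within classes, 2 RL e14 libraries against 2 RL e13 libraries grouped by title. Limma called 0 of 7 members in Sox2 progenitors, where 0% of 8405 genes were called and 673 (8.01%) had an unadjusted p under 0.05, 0 of them members. Hes5 averaged 638 ± 117 CPM at e14 and 546 ± 81.5 CPM at e13 in that class (SD, n = 2 each). In granule progenitors limma called 0 of 7 members and 0% of 8201 genes, with 1255 (15.3%) under an unadjusted p of 0.05, among them Dll1 and Hes5. Dll1 averaged 23.2 ± 8.56 CPM at e14 and 73.4 ± 46.2 CPM at e13 (-1.37 ± 0.45, limma adjusted p = 0.30), and Hes5 16.97 ± 6.56 and 88.7 ± 72.9 CPM (-1.87 ± 0.59, limma adjusted p = 0.30). Replicate 1 had the higher e13 values. Without it, with RL e13 replicate 2 alone at e13, the differences were -0.73 and -0.97. Without RL e13 replicate 2 Dll1 was at -2.01 and Hes5 at -2.76. With RL e13 replicate 2 moved to e14, as its age field says, Dll1 was at -1.77, Hes5 at -2.43, Notch1 at -1.27 and Hes1 at -1.30. RL e13 replicate 1 alone stood for e13 both without RL e13 replicate 2 and with it moved. The labels do not say whether replicates are separate animals. P-values of comparisons made within libraries set the mean difference against how far it varied from library to library. Those between ages set the difference against the spread between libraries. Limma drew on all genes tested to estimate these spreads. Either spread may be technical.

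The EomesCreER e16 library has no replicate and is given without a test. It was 78.9% Eomes Mapt neurons after thinning. Its 2090 Eomes Mapt neurons had 27.1 CPM of Dll3, with 10.7% of cells holding a UMI, against 35.2, 42.2 and 44.1 CPM in the RL libraries with enough cells. They held 274 of the library's 326 thinned Dll3 UMIs and 43 of its 45 Dll1 UMIs. Hes5 had 7 UMIs in these neurons and Hes1 had 1, in 22457457 UMIs in all. Of 37 thinned Hes5 UMIs in the library, 29 came from its 9 Sox2 progenitors.

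The 48 granule progenitors of the e16 library had 0 UMIs of Hes5 and of Hes1, which allows at most 4.10 CPM (3 counts of the 732273 UMIs), against 12.3 to 140 CPM and 6.62 to 26.8 CPM in RL granule progenitors. This class also had 79.1 CPM of Eomes, against 7.47 to 17.3 CPM in RL granule progenitors, and 650 CPM of the unipolar brush cell genes, against 60.2 to 162 CPM. The part of that difference in the members' values was not tested. Dll1 had 1 UMI there. Hes6 was at 433 CPM, below the RL range of 1217 to 1314 CPM, while Hey1, at 67.6 CPM, lay within the RL range of 52.4 to 99.9 CPM. Its 152 Eomes cells kept Notch1 at 16.02 CPM, near the 16.8 to 31.2 CPM of RL Eomes cells, with 0 UMIs of Hes5, Hes1 and Dll1 each (at most 1.48 CPM). These limits and shares cover counting error only.

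Patterns across all 27 class and library profiles were set side by side as descriptions, since the profiles share libraries. Among members, Hes1 and Hes5 were most alike (Pearson r = 0.95 on log2(CPM + 5)), followed by Notch1 with Notch2 (0.92) and Notch1 with Hes1 (0.90). Dll1 and Dll3 had an r of -0.21, and Notch1 and Dll3 one of -0.75. The gene most like Hes5 among all genes was Cyp26b1, which breaks down retinoic acid (0.98). For Hes1 it was the growth factor receptor Fgfr1 (0.97), for Notch1 the G protein subunit Gnai2 (0.96), for Notch2 Antxr1 (0.95) and for Hes6 Btbd11 (0.96). Dll3 was most like the zinc transporter gene Slc39a11 (0.93), Hey1 like B2m (0.92), and Dll1, with the weakest likeness of the 8, like Txlnb (0.89).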

How the data were processed

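Single cells of developing mouse cerebellum were sequenced with 10x Chromium 3′ kits per the labels' protocols, and the submitters' processing notes name Cell Ranger and mm10. No source used here gives the filters on cells and genes or the handling of doublets. The authors deposited natural log values of 15971 genes in 6987 cells, which equal ln(1 + 10000 × UMIs / total UMIs of the cell). All 29540669 values above 0 (100%) gave whole UMIs within a tolerance of 0.01. The batch names of the cells matched the titles of 4 libraries, and EomesCreER e16 was assigned the leftover batch. No doublet caller was run.

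Cells were thinned to 5000 UMIs (hypergeometric, fixed seed) for classes and detection, which left out 49 cells below that depth, and levels used all UMIs. Profiles of 20 or more cells were averaged, and log2(CPM + 5) was tested with limma 3.58.1 (trend, R 4.3.3) after a filter of a mean of 10 CPM. That scale understates the change of low genes. The library was a block between classes, with no block between e14 and e13. P-values were Benjamini-Hochberg adjusted over all genes tested with a threshold of 0.05. No count model was run on the recovered UMIs. Shares of cells were tested with an exact two-sided sign-flip permutation over libraries. The fits were tested on simulated data. Python 3.11.15 with NumPy 2.4.6, SciPy 1.17.1 and pandas 2.3.3 was used for the rest.

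The members and lists were chosen with earlier results of these data known. Named genes were the 8 members, up to 6 called genes of the other pathway list per comparison (largest change, 20 CPM or more in the higher class), up to 3 called proneural, G2/M and S phase genes in the Dll1 comparison, and for each member the genes with the highest correlation. A result that this rule would name among the proneural genes is not reported here. Same-numbered e14 and e13 replicates share only a number.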

Additional observations from a re-analysis of the deposited data

Results flagged for a closer look

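Of 24 sets of 4 RL libraries (a member in a class) that could be examined, 5 had 1 library far from the other 3 by Dixon's criterion, which chance alone meets in about 1 in 20 sets. RL e13 replicate 1 was the distant library in 4 of them. It had 149.9 CPM of Notch1 in transition cells, where the others had 53.74 to 64.02 CPM, and 61.75 CPM in granule progenitors, where the others had 20.03 to 24.43 CPM. It had 26.81 CPM of Hes1 in granule progenitors against 6.621 to 9.591 CPM in the others, and 597.4 CPM of Hes6 in transition cells against 1288 to 1376 CPM. RL e14 replicate 2 had 83.3 CPM of Notch2 in Sox2 progenitors, against 19.3 to 29.61 CPM in the others. Beside these values, 43.3% of transition cells and 27.4% of granule progenitors of RL e13 replicate 1 had a UMI of a roof plate gene, against at most 14.8% and 10.2% in the other RL libraries, and its granule progenitors had 116 CPM of Sox2. The part these cells have in the distant values was not tested.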

How the results depend on the processing

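Of 19 called member results, 217 of 272 alternatives kept direction and call, 54 lost the call and 1 turned direction (Hes5 in the Dll1 split among transition cells). Of 430 alternatives of the 28 uncalled results, 25 gained a call and 29 turned direction. Leaving out 1 library at a time gave ranges of 2 to 864 genes higher, 0 to 1346 lower and 0 to 8 members called for transition cells against Sox2 progenitors, and 90 to 480 higher and 101 to 498 lower for granule progenitors against transition cells. It gave 261 to 630 higher, 172 to 529 lower and 1 to 3 members for Eomes cells, and 92 to 247, 196 to 556 and 1 to 3 for the Dll1 split. For e14 against e13 it gave 0 to 113 higher and 0 to 27 lower in Sox2 progenitors, and 0 to 704, 0 to 1138 and 0 to 5 members in granule progenitors. Among members that were not called, leaving out 1 library moved the log2 difference of Hes6 (-0.053 to 0.33) and Hey1 (-0.11 to 0.036) for granule progenitors, of Notch1 (-0.070 to 0.10) and Dll3 (-0.28 to 0.35) for Eomes cells, of Notch1 (-0.13 to 0.028) for the Dll1 split, and of Notch1 (-0.10 to 0.50), Hes1 (-0.14 to 0.81) and Hes6 (-0.39 to 0.33) between e14 and e13 Sox2 progenitors. The Notch1 share difference ranged over -0.571 to 7.196 percentage points. The highest gene counts for transition cells and granule progenitors came without RL e13 replicate 1, the lowest for Eomes cells without RL e14 replicate 2, and the lowest for the Dll1 split and the highest between ages without RL e13 replicate 2.

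Without the library block, genes higher and lower were 187 and 361 for transition cells (0.05 threshold throughout), 2 and 2 for granule progenitors with 0 members, 0 and 0 for Eomes cells with 0 members, and 1 and 1 for the Dll1 split with 0 members, and 1168 genes were lower in Mapt neurons with 2 members called. With 1 UMI and no thinning they were 503 and 816 for granule progenitors, 252 lower with 1 member for Eomes cells, 558 and 344 with 2 members for Mapt neurons, and 24 and 19 between e14 and e13 granule progenitors. Log2 differences there were 0.056 for Hey1 in granule progenitors, -0.33 for Dll3 in Eomes cells, 0.053 for Hes6 between e14 and e13 Sox2 progenitors and -0.13 for Dll3 between e14 and e13 granule progenitors. With 2 UMIs, 443 genes were lower in granule progenitors, Dll3 was at -0.034 in Eomes cells and Hes6 at 0.086 between ages. At 3000 UMIs the Dll1 split had 122 higher and 293 lower, Notch1 was at -0.29 in Eomes cells, Hes5 at -0.45 in Mapt neurons and Hes6 at 0.28 between ages, and the Notch1 share difference was -11.7 points.

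Without cycling cells the Dll1 split had 103 higher and 257 lower with Notch1 at 0.023, Hey1 was at 0.0087 in granule progenitors, Notch1 at -0.027 in Eomes cells, Hes6 at 0.20 between ages and the Hes1 share difference -17.2 points. Without roof plate cells 136 genes were lower in granule progenitors, the Hes5 share difference was -10.7 points, and Dll3 was at -0.043 between e14 and e13 granule progenitors. With no filter Eomes cells had 317 higher, 226 lower and 1 member, and the Dll1 split 54, 110 and 1. Among transition cells only, an alternative chosen after seeing the data, the split had 35, 73 and 0, with Notch1 at 0.43, Notch2 at 0.32 and Hes5 at 0.26. Without the 5% of cells with the most UMIs Hes6 was at 0.014 between ages, and with median-of-ratios scaling at 0.025. That scaling moved the share of calls that were higher to 47.5%, against 36.7%, for transition cells and to 44.3%, against 29.9%, for the Dll1 split.

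Grouping RL e13 replicate 2 by its age tag gave 35 higher and 3 lower in Sox2 progenitors (Hes6 at 0.073) and 294, 200 and 4 members in granule progenitors. Same-numbered replicates did not pair the samples (correlation of deviations 0.17 in Sox2 progenitors and -0.04 in granule progenitors). With a replicate block the e14 against e13 comparison gave 6 genes higher and 1 lower in granule progenitors and 0 members, and 0 genes in Sox2 progenitors. The cause of these changes was not tested. Depth limits Notch2, Dll3 and, in neurons, Dll1 and Hes5, which had few UMIs in some profiles.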
